A study of Mus musculus with 2 samples.

Results

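Cytosolic ribosomal protein genes encode the proteins of the small and the large subunit of the ribosome, and their expression was described here in cells of mouse vein grafts. The genes were chosen by symbol from the deposited feature list: every Rps or Rpl number symbol with at most a short suffix, together with Rpsa, Rplp0, Rplp1 and Rplp2. This gave 83 of the 32285 genes listed, of which 31 belong to the small subunit, 43 to the large subunit and 3 to the P-stalk, and 6 are paralogs of another member. The 5 pseudogene rows and 10 Rps6k kinase rows were left out, and Fau, Rack1 and Rpl36al, which also encode ribosomal or ribosome-bound proteins, lie outside the symbol rule. Of the 83 genes, 80 had at least 10 counts per 1000000 UMIs (CPM) in one of the libraries over all kept cells.

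The study compared conventional vein grafts with No-Touch vein grafts by single-cell RNA sequencing with droplet capture, and it holds 1 library of each. Both libraries came from C57BL6/J mice of 10 to 12 weeks, and grafts were pooled and digested enzymatically before live nucleated cells without surface CD45, a leukocyte antigen, were sorted. A No-Touch graft is a vein taken with the tissue around it, while a conventional graft is stripped of that tissue. The sources used here give no number of animals or grafts per library, so every difference below compares 2 libraries and not 2 kinds of graft, and no test was possible.

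The conventional library held 10458 kept cells with a median of 16778 UMIs, and the No-Touch library held 11525 kept cells with a median of 28472 UMIs. Cells were assigned to classes by marker genes, with 8.61% and 5.63% left unassigned. In spite of the sort, 217 cells of the conventional library carried neutrophil markers and 112 cells of the No-Touch library carried T or NK cell markers. Across the libraries 22 barcodes were shared, of which 18 were kept. RNAs derived from ribosomal RNA (AY036118, Lars2 and Gm42418) held 0.954% of fibroblast UMIs in the conventional library and 0.273% in the No-Touch library, and mitochondrial genes held 2.32% and 1.71%. Both were lower in the No-Touch library in all 4 larger classes, and their part in the differences below was not tested.

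Ribosomal protein genes are transcribed at high levels in nearly every cell, since each ribosome needs 1 copy of most of these proteins. Their mRNAs typically start with a run of pyrimidines, the TOP motif, through which the kinase mTOR and the RNA-binding protein Larp1 control their translation and stability. The share of a cell's mRNA spent on these genes is known to differ between cell types, and mature neutrophils are known to hold little translation machinery.

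Start-site sequence was read from the RefSeq promoter table for GRCm38.p6, which matched 63 of the 83 genes. In 13 of them (20.6%) the annotated start lay on a C followed by at least 4 bases that were each C or T, read on the strand of the gene. The same was found in 2.97% of 26962 other genes. A longer tract, a C followed by at least 7 such bases, began within 10 bases before to 40 bases after the start of 36 members (57.1%) and of 15.5% of the other genes. The windows below run from 15 bases before the start through 15 bases from the start onwards. The first 5 show members with a tract of the first, shorter kind that begins at the annotated start, and it is in capitals. The next 4 have no tract at the annotated start, though in the Rpl22l1 window a longer tract begins shortly after it. These 4 are shown because the expression results below turn on these genes. The set was chosen after the values were seen. The 5 with a tract are Rpl15 at chr14:18270972-18271001 (minus strand), Rps18 at chr17:33955651-33955680 (minus), Rps6 at chr4:86857353-86857382 (minus), Rps27 at chr3:90213634-90213663 (minus) and Rplp2 at chr7:141447636-141447665 (plus). The 4 without are all on the plus strand: Rpl6 at chr5:121204486-121204515, Rpsa at chr9:120127751-120127780, Rpl27 at chr11:101442230-101442259 and Rpl22l1 at chr3:28805493-28805522.
Rpl15: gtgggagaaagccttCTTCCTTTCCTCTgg
Rps18: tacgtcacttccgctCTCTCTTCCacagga
Rps6: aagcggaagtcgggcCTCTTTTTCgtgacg
Rps27: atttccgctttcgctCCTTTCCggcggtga
Rplp2: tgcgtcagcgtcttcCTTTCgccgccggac
Rpl6: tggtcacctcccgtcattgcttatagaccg
Rpsa: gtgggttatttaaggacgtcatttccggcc
Rpl27: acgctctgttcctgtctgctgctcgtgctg
Rpl22l1: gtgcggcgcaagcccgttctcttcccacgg
The tract of Rpl15 was 13 bases long, and those of Rps18 and Rps6 were 9. A missing tract says only that these letters do not stand at this annotated start.

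In classes of at least 50 cells in a library, the 83 genes together held between 3.70% and 24.5% of a class's UMIs. T or NK cells of the No-Touch library stood highest at 24.5% (112 cells), and neutrophils of the conventional library stood lowest at 3.70% (217 cells). The 23 neutrophils of the No-Touch library had 3.46%. Among the 4 classes with at least 200 cells in both libraries, blood endothelial cells had the highest share, at 17.6% and 16.6% (conventional first here and below). Fibroblasts followed in the conventional library at 16.4% and had 14.5% in the No-Touch library. Lymphatic endothelial cells had 14.2% and 14.0%, and mural cells, meaning pericytes and smooth muscle around vessels, had 12.3% and 11.8%. The order of the 4 classes was the same in both libraries. Schwann cells, the glia of peripheral nerve, had 10.1% (135 cells) and 10.3% (154 cells). Epithelial marker cells of the conventional library, led by Pth, the parathyroid hormone gene, had 10.1% (179 cells). Mononuclear phagocytes of the No-Touch library had 13.7% (51 cells).

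**Figure D1:**
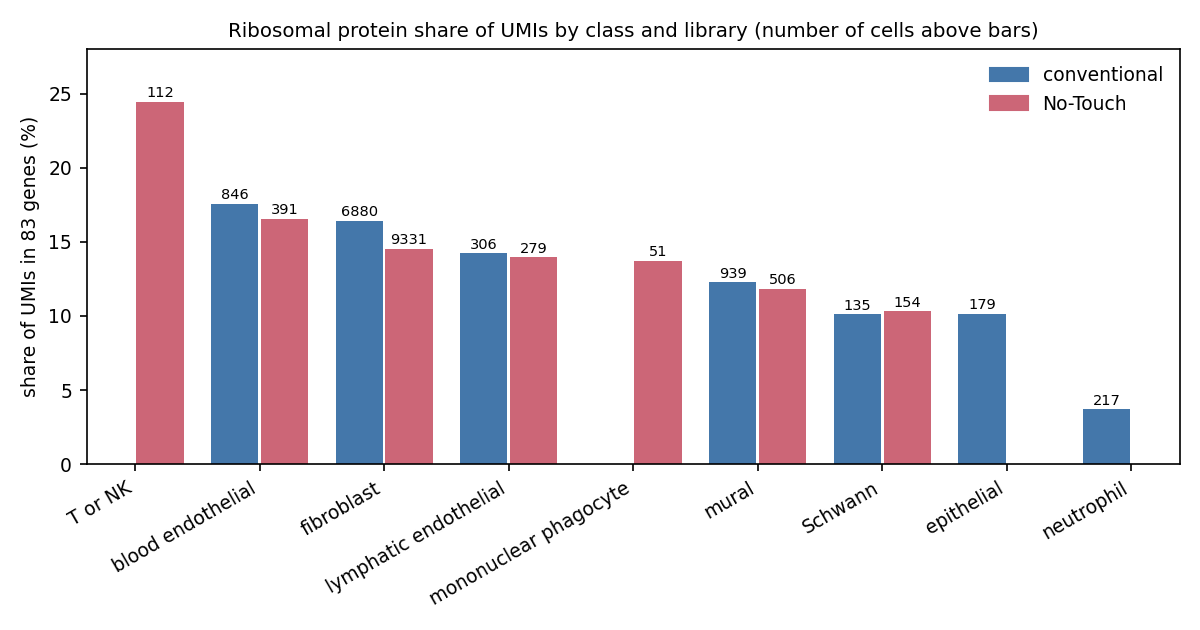
Share of UMIs (%, vertical axis from 0) held by the 83 ribosomal protein genes in each marker-gated class, as 1 bar per library, with the number of cells above each bar. Classes with under 50 cells in a library have no bar. T or NK cells reach 24.5% and neutrophils 3.70%, while the paired bars of a class lie much closer to each other.

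The No-Touch library had the lower share in each of the 4 classes. In fibroblasts the 95% Clopper-Pearson interval ran from 16.419% to 16.43% in the conventional library, and the share was 1.89 percentage points lower in the No-Touch library, a log2 ratio of -0.18 (6880 and 9331 cells). The log2 ratio was -0.09 in blood endothelial cells (846 and 391 cells), -0.05 in mural cells (939 and 506 cells) and -0.03 in lymphatic endothelial cells (306 and 279 cells). These intervals cover counting error only, which is tiny at this depth. The spread between grafts is unknown with 1 library each.

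In absolute UMIs per cell the direction was the opposite in each of the 4 larger classes, and their total UMIs per cell were higher too in the No-Touch library. Sequencing depth, capture and RNA per cell cannot be told apart here. A fibroblast carried on average 3731 ribosomal protein UMIs of 22713 in the conventional library and 5243 of 36084 in the No-Touch library. Ribosomal protein UMIs per cell were 1322 and 1927 in mural cells, 2543 and 3532 in blood endothelial cells and 1779 and 1786 in lymphatic endothelial cells. A conventional neutrophil carried 99.6 of 2692. The share, and not this number, is therefore compared below.

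Thinning each cell to 5000 UMIs left the order of the classes in place. The median fibroblast then spent 16.2% of its UMIs on the 83 genes in the conventional library and 14.4% in the No-Touch library, against 16.2% and 14.3% unthinned. Between the quartiles, fibroblasts ran from 13.9% to 18.7% and from 12.6% to 16.4%, so single cells of the 2 libraries overlapped widely. The thinned medians were 17.4% and 16.8% in blood endothelial cells, 13.9% and 13.8% in lymphatic endothelial cells and 11.9% in mural cells of both libraries. Thinning left out 198 and 300 fibroblasts, 70 and 4 mural cells, 87 and 3 blood endothelial cells, and 23 and 19 lymphatic endothelial cells.

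**Figure D2:**
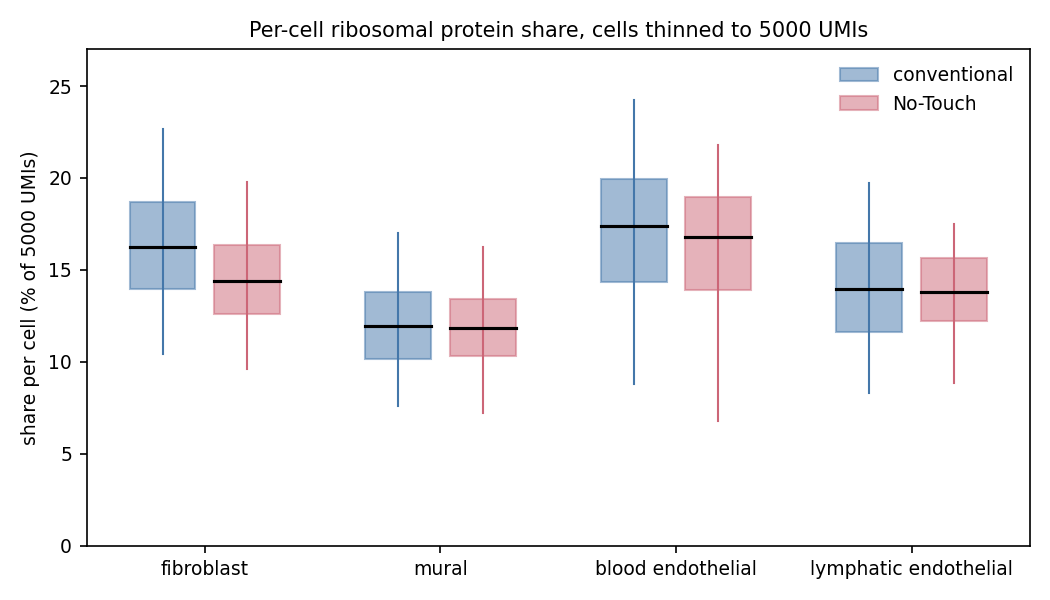
Share of UMIs per cell held by the 83 genes (% of 5000 UMIs, vertical axis), for the 4 larger classes of each library after thinning every cell to 5000 UMIs. Boxes span the quartiles, black lines are medians and thin lines run from the 5th to the 95th percentile; fibroblast medians are 16.2% and 14.4%, and those of mural cells are 11.9% in both libraries.

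Fibroblasts of like depth differed in the same direction. Those with 10000 to 20000 UMIs had shares of 16.5% (2782 cells) and 14.0% (1173 cells). Those with 20000 to 40000 UMIs had 16.2% (2882 cells) and 14.8% (4493 cells). The widest gap was among fibroblasts of 5000 to 10000 UMIs, with 15.1% and 10.7% (402 and 213 cells). Lymphatic endothelial cells of 10000 to 20000 UMIs had 14.0% in both libraries, with a log2 ratio of 0.01.

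The fibroblast difference varied in size over marker-gated states, and the class was made up differently in the 2 libraries. The inflammatory state held 11.1% of conventional and 1.85% of No-Touch fibroblasts, the matrix-producing state 10.4% and 22.5%, the interferon state 11.4% and 16.5%, the Crabp2 state 1.72% and 5.97% and the Pi16 state 13.9% and 12.3%. Fibroblasts with the Pi16 program, a marker of adventitial fibroblasts, had the highest share in both libraries, at 18.04% and 15.97%. Fibroblasts of the matrix-producing state had 15.6% and 13.3%, and those of the inflammatory state had 16.1% and 13.7%. Crabp2 fibroblasts had 15.6% and 14.1%. The interferon state had 15.8% and 15.7% and a log2 ratio of -0.01, from 783 and 1537 cells. The difference between states was not tested. In mural cells, pericytes had 12.7% in both libraries and smooth muscle cells had 11.3% and 11.1%. Smooth muscle cells made up 20.7% of mural cells (conventional) and 47.8% (No-Touch), so the mural class too was made up differently.

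**Figure D3:**
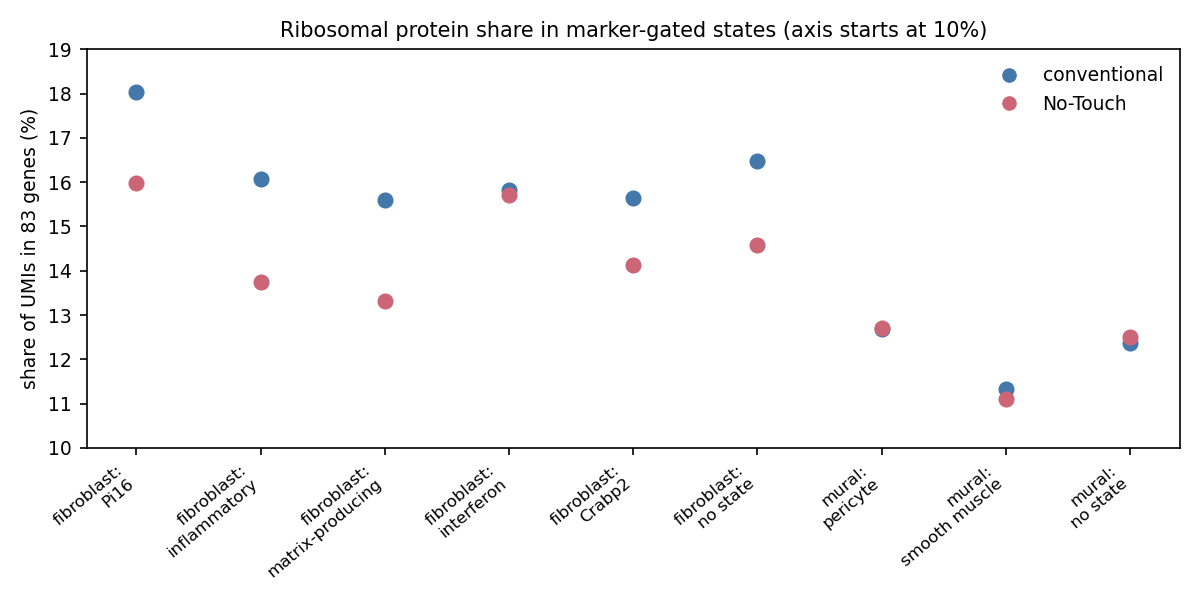
Share of UMIs (%, vertical axis, starting at 10%) held by the 83 genes in marker-gated states of fibroblasts and mural cells, with 1 point per library. Conventional points lie above No-Touch points in 6 of 6 fibroblast groups, with log2 ratios between -0.23 and -0.01, and the interferon points lie closest, at 15.8% and 15.7%.

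Gene by gene, a small set of ribosomal protein genes stood apart between the libraries in the same direction in all 4 classes, while most members differed little. A member was counted as higher or lower in the No-Touch library when its CPM was at least 25% higher or at least 20% lower, the same fold in either direction. In fibroblasts 2 of 80 members were higher and 10 were lower, where 19.6% of all 8459 genes were higher and 10.7% were lower. In mural cells 6 were higher and 4 lower (27% and 15.9% of 8848 genes). In blood endothelial cells 4 were higher and 4 lower (25.3% and 15% of 8649 genes). In lymphatic endothelial cells 9 were higher and 5 lower (20.5% and 19.1% of 8756 genes). At 1.5 times, 0 members were higher and 1 lower in fibroblasts (7.15% and 3.35% of all genes), 1 and 0 in mural cells (12.2% and 6.76%), 1 and 0 in blood endothelial cells (11.2% and 5.68%) and 2 and 2 in lymphatic endothelial cells (9.19% and 6.86%). The difference between members and all genes was not tested. Most other genes had lower counts than the members, and counting error weighs more on low counts. Other scalings moved the balance towards lower members. The shares of all genes above hold for CPM alone, and none are given for the other scalings. Under median of ratios 2 were higher and 17 lower in fibroblasts, 3 and 13 in mural cells, 2 and 15 in blood endothelial cells and 8 and 7 in lymphatic endothelial cells, and under TMM the counts were 2 and 18, 3 and 10, 3 and 12, and 9 and 6. Their median log2 ratio was -0.19, -0.06, -0.09 and -0.05 in fibroblasts, mural, blood endothelial and lymphatic endothelial cells, against 0.05, 0.08, 0.06 and 0.00 for all genes. Of the 83 members, 42 were below 0 in all 4 classes, 11 were above 0 in all 4, and 64 were counted as neither higher nor lower in any. The 64 include Rpl3l, Rpl10l and Rpl39l, which were under 10 CPM in the 4 classes and so could not be counted. No such counts over all genes are given, so these counts say nothing particular of the members. The classes of a library share its preparation and sequencing, so they are not independent of each other.

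**Figure D4:**
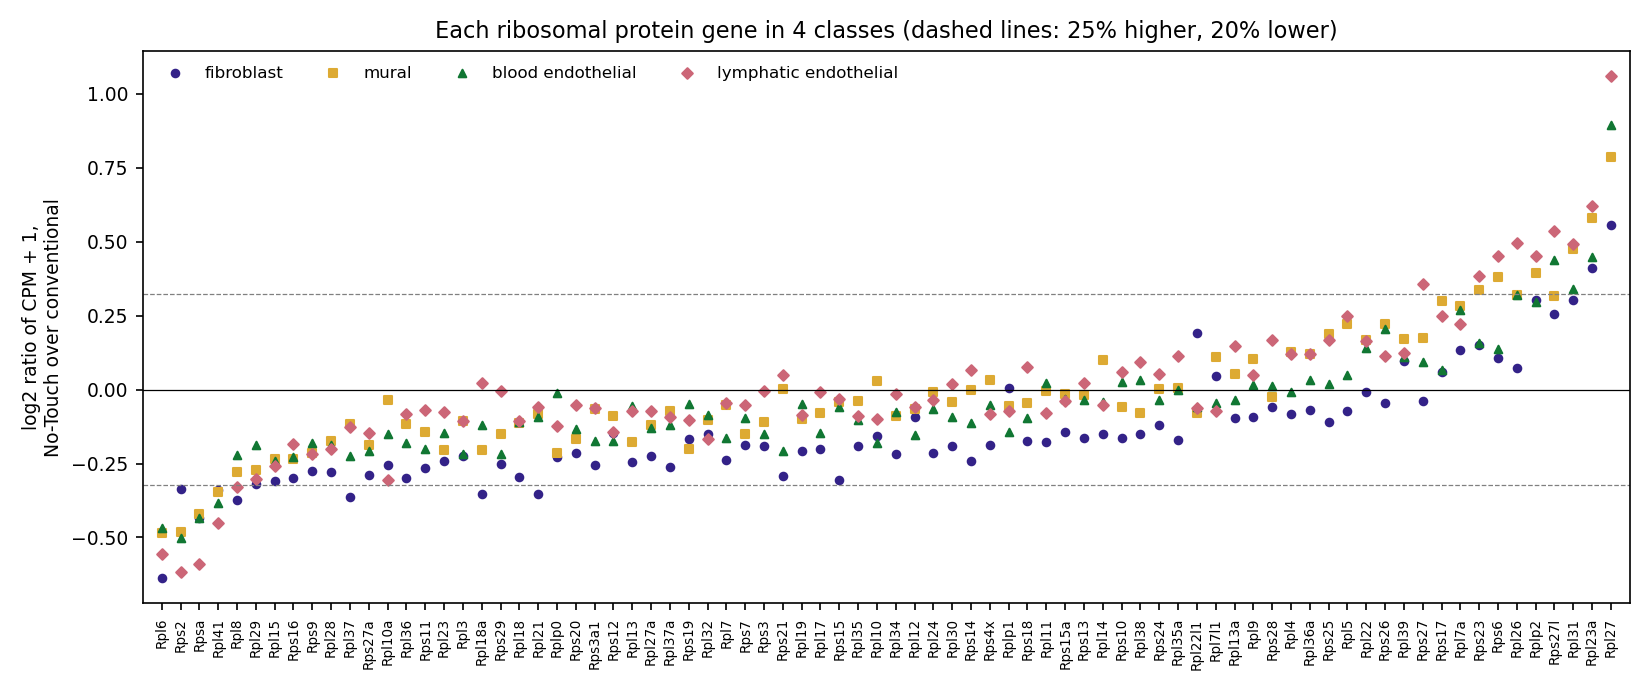
Log2 ratio of CPM + 1, No-Touch over conventional (vertical axis), for each ribosomal protein gene of at least 10 CPM in fibroblasts (horizontal axis, ordered by the mean of the 4 classes, with 2 genes not drawn); symbols mark the class and dashed lines mark 25% higher and 20% lower. Rpl27 lies highest, between 0.56 and 1.06, and Rpl6, Rps2 and Rpsa lie lowest, between -0.64 and -0.34.

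Among small subunit genes, Rpsa and Rps2 were lower in the No-Touch library in every class. Rpsa encodes a small subunit protein also known as the laminin receptor precursor. Its conventional and No-Touch CPM were 2545 and 1885 in fibroblasts, 1713 and 1280 in mural cells, 2409 and 1784 in blood endothelial cells and 1897 and 1260 in lymphatic endothelial cells. All 4 conventional values exceeded their No-Touch counterparts, and the log2 ratios ran from -0.59 in lymphatic endothelial cells to -0.42 in mural cells. Rps2 lies near the path by which mRNA enters the ribosome. Its CPM were 2792 and 2211, 2451 and 1754, 2988 and 2111, and 2658 and 1731 in the same order of classes, with log2 ratios of -0.34, -0.48, -0.50 and -0.62.

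Rps27, a small subunit zinc finger protein, differed in sign among the classes. Its CPM were 2290 and 2229 in fibroblasts, with a log2 ratio of -0.04, and 1956 and 2505 in lymphatic endothelial cells, with 0.36. Rps6, the substrate of S6 kinase downstream of mTOR, had log2 ratios of 0.11 in fibroblasts, 0.38 in mural cells, 0.14 in blood endothelial cells and 0.45 in lymphatic endothelial cells. Rps23, a protein of the decoding centre, had 0.15, 0.34, 0.16 and 0.39. Rps27a, which is made as a fusion with ubiquitin, was below 0 in each class, from -0.29 in fibroblasts to -0.15 in lymphatic endothelial cells. Rps3a1 had -0.25 in fibroblasts and between -0.17 and -0.06 elsewhere. Rps6 and Rps23 were named after their values were seen.

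Among large subunit genes, Rpl27 and Rpl23a were higher in the No-Touch library in every class. Rpl27 had CPM of 746 and 1099 in fibroblasts, 622 and 1073 in mural cells, 753 and 1399 in blood endothelial cells and 535 and 1117 in lymphatic endothelial cells. Each No-Touch value exceeded all 4 conventional values, and the log2 ratios were 0.56 (counting interval 0.55 to 0.57), 0.78, 0.89 and 1.06 (0.98 to 1.14). Rpl23a, a protein at the exit of the tunnel through which the new peptide leaves, had 1468 and 1952, 1174 and 1755, 1527 and 2082, and 1065 and 1638 CPM. Its log2 ratios ran from 0.41 in fibroblasts to 0.62 in lymphatic endothelial cells. Rpl31, also at the tunnel exit, had log2 ratios of 0.30, 0.47, 0.34 and 0.49 and stayed just under the upper limit in fibroblasts, with 811 and 1000 CPM. Rpl26, named after its values were seen, had 0.07, 0.32, 0.32 and 0.50.

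Rpl6 showed the widest difference in the other direction among fibroblasts. Its CPM were 2213 and 1422 in fibroblasts, 1741 and 1243 in mural cells, 2349 and 1698 in blood endothelial cells and 2082 and 1416 in lymphatic endothelial cells. Every conventional value exceeded all 4 No-Touch values, the closest pair being 1741 in mural cells and 1698 in No-Touch blood endothelial cells. The log2 ratios were -0.64, -0.49, -0.47 and -0.56. Rpl41, which encodes a very short basic peptide and was named after its values were seen, had -0.34, -0.35, -0.38 and -0.45. Rpl8 had -0.37, -0.28, -0.22 and -0.33. Rpl21 had -0.35 in fibroblasts and between -0.09 and -0.06 in the other classes. In all, 4 members (Rpl6, Rpsa, Rps2 and Rpl41) passed the lower limit in 4 classes and 2 members (Rpl27 and Rpl23a) passed the upper limit in 4 classes. How many other genes did the same in 4 classes is not given here.

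How well a 3 prime count separates a gene from its copies differs among these members. The last 200 bases of a single annotated transcript per member were searched, and other annotated ends were not. There, 60 of the 83 members shared a 31-base stretch with a transcript of another gene in GENCODE vM21, mostly pseudogenes. For Rpl6, Rpl31 and Rplp2 no such stretch was shared, and for Rpsa 1.18% were. For Rpl27 the share was 82.9%, for Rps2 80.6%, for Rpl41 78.8% and for Rpl23a 73.5%, so the levels of these 4 genes are less certain. Among the pseudogene rows left out, Rpl10-ps3 was higher in the No-Touch library in the 4 classes, with log2 ratios between 0.46 and 1.05. What part the splitting of reads among copies had in these values was not tested.

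The P-stalk proteins, an arm of the large subunit that recruits the GTPases of translation, did not move as 1 unit. Rplp2 had 1712 and 2112 CPM in fibroblasts, 1445 and 1898 in mural cells, 2158 and 2652 in blood endothelial cells and 1626 and 2224 in lymphatic endothelial cells. It was thus higher in the No-Touch library in each class, with log2 ratios of 0.30, 0.39, 0.30 and 0.45. Rplp0, the base of the stalk, had -0.23 in fibroblasts (2633 and 2250 CPM), -0.21 in mural cells, -0.01 in blood endothelial cells and -0.12 in lymphatic endothelial cells. Rplp1, which pairs with Rplp2, had 4295 and 4311 CPM in fibroblasts, a ratio of 0.01 that turns below 0 under other scalings, and 4288 and 3881 CPM in blood endothelial cells, a ratio of -0.14. Of all member UMIs in fibroblasts, the stalk held 5.26% (conventional) and 5.97% (No-Touch), the small subunit 43.8% and 43.1%, and the large subunit 50.3% and 50.2%.

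The paralogs differed widely in level and in pattern. Rps27l, a copy of Rps27 known as a p53 target, had 234.8 and 280.3 CPM in fibroblasts, 188 and 234.6 in mural cells, 179 and 243 in blood endothelial cells and 154 and 224 in lymphatic endothelial cells. Each No-Touch value was higher than its counterpart, with log2 ratios of 0.25, 0.32, 0.44 and 0.54. Rpl22l1, a copy of Rpl22, had 698 and 797 CPM in fibroblasts, 700 and 662 in mural cells, 503 and 482 in blood endothelial cells and 553 and 530 in lymphatic endothelial cells. Among these 4 classes it was higher in the No-Touch library in fibroblasts alone, at 0.19, and lay between -0.08 and -0.06 in the others. In Schwann cells Rpl22l1 was also higher in the No-Touch library, with 341 and 431 CPM. Its parent Rpl22 lay between 0.14 and 0.17 in mural, blood endothelial and lymphatic endothelial cells. In fibroblasts Rpl22 had -0.01, with a counting interval of -0.0166 to 0.0009 that gives no direction. Rpl7l1, a copy of Rpl7, stayed between 39.5 and 53.7 CPM in the 4 classes of both libraries. Of the copies known for expression in muscle or testis, Rpl10l, a retrogene active in the male germ line, had no UMI in either library. Rpl39l was under 10 CPM in each of the 4 classes, with 7.14 and 4.07 CPM in fibroblasts. In the other classes its No-Touch value was the higher one. It had 3.56 and 4.86 CPM in mural cells, 2.45 and 3.12 in blood endothelial cells and 0.523 and 4.76 in lymphatic endothelial cells. Mural values rest on 36 and 40 UMIs and blood endothelial values on 30 and 26. Their log2 counting intervals ran from -0.24 to 1.14 and from -0.47 to 1.15, so neither gives a direction. The lymphatic endothelial class held only 3825206 and 3569995 UMIs in all, so its Rpl39l values rest on very few UMIs too.

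Rpl3l, the striated muscle copy of Rpl3, was found in only 25 UMIs of the conventional and 42 of the No-Touch library. In the conventional library 7 of 217 neutrophils (median 2548 UMIs) and 7 of 6880 fibroblasts (median 20222 UMIs) held 1 UMI each. In the No-Touch library 5 of 23 neutrophils held 6 UMIs and 13 of 9331 fibroblasts held 1 each. Of mural cells, 4 of 506 held 5 UMIs in the No-Touch library and 0 of 939 held any in the conventional library. No UMI was found in 846 and 391 blood endothelial cells or in 306 and 279 lymphatic endothelial cells. These counts are very small, and whether they come from Rpl3l transcripts was not tested.

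Within a library, most members followed the same ranking of classes. Of 79 members with at least 100 CPM in their highest class, blood endothelial cells were highest in 58 (conventional) and 65 (No-Touch), and mural cells were lowest in 72 and 69. The highest class was the same in both libraries for 61 of 79 members and the lowest for 73. No such counts over other genes of that level are given, so these describe the members without setting them apart. The median fold between the highest and the lowest class was 1.47 (conventional) and 1.43 (No-Touch), against 2.54 and 2.44 over the other genes that reached 100 CPM in a class. Genes active in 1 class enter that comparison through the class where they are high, so it says nothing particular of the members. Only Rps3 passed 2-fold.

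Rps3, a protein at the mRNA entry that is also known for roles in DNA repair, had 3332 and 3001 CPM in blood endothelial cells, 1903 and 1666 in fibroblasts, 1888 and 1881 in lymphatic endothelial cells and 1442 and 1338 in mural cells. Blood endothelial cells were 2.31 and 2.24 times above mural cells in the conventional and No-Touch libraries. The transcript end of Rps3 shared no stretch with another gene. By the smaller of the 2 folds, Rps20 followed, at 1.79 and 1.83 times between blood endothelial and mural cells, then Rps12 at 1.80 and 1.70, Rpl28 at 1.67 and 1.66 and Rps18 at 1.71 and 1.65. By the smaller of the 2 folds, the members with the narrowest spread were Rpl21 at 1.30 and 1.08 times, Rpl24 at 1.23 and 1.15, Rpl8 at 1.23 and 1.16, Rpl7a at 1.205 and 1.177 and Rps2 at 1.22 and 1.28. Rpl22l1 ran against the common ranking, being lowest in blood endothelial cells of both libraries, as was Rps3a1, with 2007 and 1778 CPM there and 2782 and 2332 in fibroblasts.

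**Figure D5:**
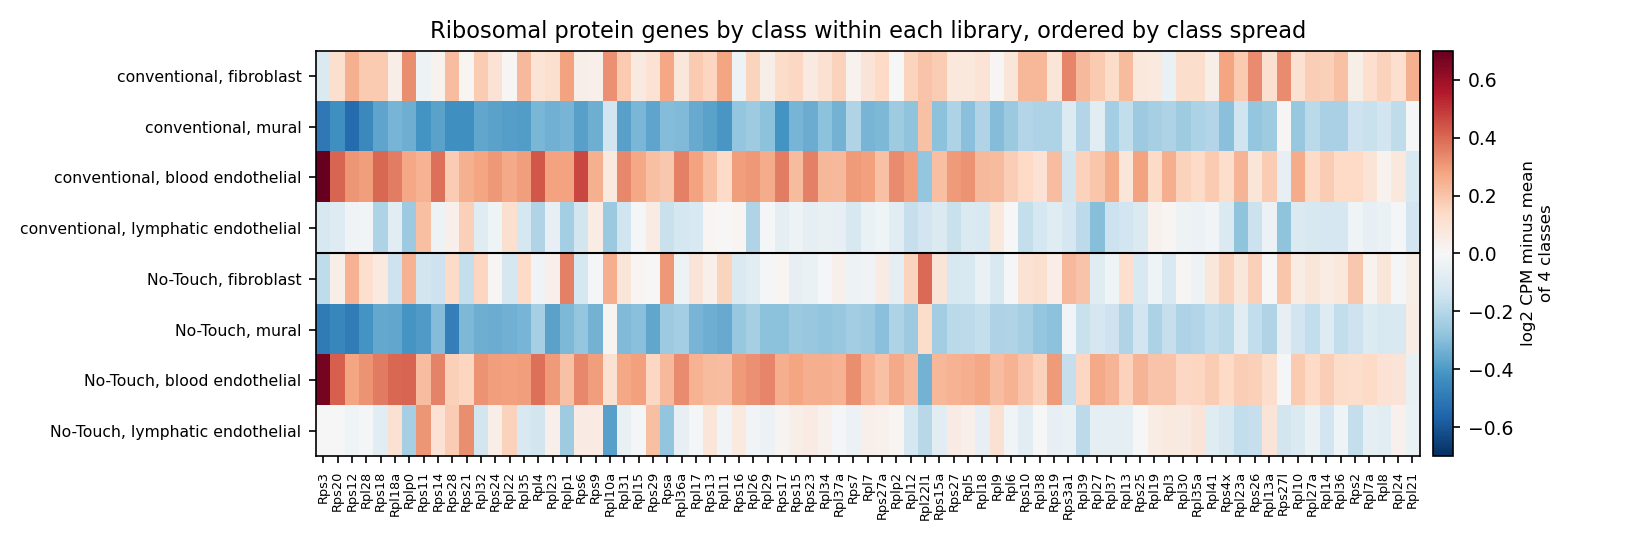
Log2 CPM minus the mean of the 4 classes of the same library (colour), for members of at least 100 CPM (horizontal axis, ordered from the widest to the narrowest class spread, with 2 genes not drawn), with 1 row per class and library. Blood endothelial rows are mostly red and mural rows mostly blue in both libraries, and Rpl22l1 shows the reverse in both rows.

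The smaller classes were set against fibroblasts of the same library, for members of at least 100 CPM in either. In the 112 T or NK cells of the No-Touch library, 78 of 79 members lay above fibroblasts and 73 were at least 25% higher, where 53.4% of all genes of that level were. Only 1 was at least 20% lower (35.2% of all genes). Their median log2 ratio was 0.72, against 0.38 for other genes. Rps15a, with 6349 CPM in T or NK cells and 2095 in fibroblasts, had the highest ratio at 1.60, followed by Rpl27 with 3040 and 1099 CPM at 1.47 and Rps13 with 3617 and 1472 CPM at 1.30. Rps27l was the 1 member below fibroblasts, with 194 and 280 CPM and a ratio of -0.53. The transcript end of Rps15a shared 78.8% of its stretches with pseudogenes.

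The 217 neutrophils of the conventional library lay below fibroblasts for 79 of 79 members. The median log2 ratio was -2.42, against 0.04 for other genes, and 78 were at least 20% lower and 0 at least 25% higher, where 49% and 44.2% of all genes were. The members did not all lie equally low. Rps9, a protein near the mRNA entry, had 1832 CPM (1724 to 1945, 1070 UMIs) in neutrophils and 2146 in fibroblasts, a log2 ratio of -0.23. Rps27 had 1589 CPM (1488 to 1695) and 2290 in fibroblasts, a ratio of -0.53, and Rpl37 had 1055 and 2515, a ratio of -1.25. At the other end, Rps18 had 192 CPM (158 to 231, 112 UMIs) and 2035 in fibroblasts, a ratio of -3.40, and Rps4x had 262 and 2460, a ratio of -3.23. The neutrophils came with a median of 2548 UMIs per cell and 46 of them lay near the edge of the gate.

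Schwann cells lay below fibroblasts for 79 of 79 members in the conventional and 78 of 79 in the No-Touch library, with medians of -0.71 and -0.48. Of these, 77 and 63 were at least 20% lower, where 32.5% and 31.1% of all genes were, and 0 were at least 25% higher in either library, where 46% and 46.7% were. Rpl3 lay closest to fibroblasts or above them in both libraries, with 1232 against 1273 CPM and 1136 against 1088 CPM. Rps12 and Rpl22l1 were among the 3 lowest in both, at -1.05 and -1.03 in the conventional and -0.84 and -0.89 in the No-Touch library. Epithelial marker cells of the conventional library also lay below fibroblasts for 79 of 79 members, with a median of -0.71 and with Rps4x lowest at -1.30, and 73 were at least 20% lower and 0 at least 25% higher, where 50.6% and 30.2% of all genes were. In the 51 mononuclear phagocytes of the No-Touch library 30 members lay above and 49 below fibroblasts, with 4 at least 25% higher and 19 at least 20% lower (45.9% and 35.7% of all genes). There too Rps9 had the highest ratio, at 0.54, with 2584 against 1771 CPM.

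Other genes of ribosome production and translation did not share 1 direction. Beside the counts of these lists stand the shares of all genes, 19.6% higher and 10.7% lower in fibroblasts, 27% and 15.9% in mural cells, 25.3% and 15% in blood endothelial cells and 20.5% and 19.1% in lymphatic endothelial cells, and no difference from them was tested. Of 32 measured ribosome biogenesis genes, which make and process ribosomal RNA, 2 were at least 25% higher and 13 at least 20% lower in fibroblasts of the No-Touch library, 1 and 9 in mural cells, 0 and 14 in blood endothelial cells and 2 and 3 in lymphatic endothelial cells. Their median log2 ratios were -0.24, -0.21, -0.26 and 0.06. Nhp2, a small nucleolar ribonucleoprotein subunit, had 75.3 and 51.1 CPM in fibroblasts and 82.9 and 48.7 in lymphatic endothelial cells. Mitochondrial ribosomal protein genes, which serve the ribosomes of mitochondria, were 6 higher and 5 lower of 74 in fibroblasts, 26 and 4 of 75 in mural cells, 16 and 5 of 74 in blood endothelial cells and 10 and 10 of 76 in lymphatic endothelial cells.

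Of 30 initiation factor genes, 0 were higher and 2 lower in fibroblasts, 3 and 5 in mural cells, 1 and 7 in blood endothelial cells and 2 and 5 in lymphatic endothelial cells. The shares of all genes in the same order, for each list here, were 19.6% and 10.7%, 27% and 15.9%, 25.3% and 15%, and 20.5% and 19.1%. Of 9 elongation factor genes, 0 and 2, 1 and 1, 2 and 1, and 1 and 2 were higher and lower in the same order. Eef2, the factor that moves the ribosome along the mRNA, was lower in the No-Touch library in each class, with 979 and 664 CPM in fibroblasts and log2 ratios of -0.56, -0.35, -0.41 and -0.38. Of 14 measured growth regulators of ribosome production, 2 were higher in each class, and 0, 2, 1 and 3 were lower. Myc, a transcription factor that drives ribosome production, had CPM of 100 and 252 in fibroblasts, a log2 ratio of 1.32, and between 0.87 and 1.31 in the other classes. Rheb, the small GTPase that activates mTOR, had 107 and 177 CPM in fibroblasts, a ratio of 0.72, and Eif4ebp1, an mTOR-controlled inhibitor of initiation, had -0.90 in blood endothelial cells.

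Of the ribosomal genes outside the symbol rule, Fau, the small subunit protein made as a fusion with a ubiquitin-like peptide, had -0.32 in fibroblasts and between -0.17 and -0.07 elsewhere. Rack1, a scaffold on the small subunit, had between -0.28 and -0.14. Of 20 early-response and heat shock genes, known to react to tissue handling, 5 were higher and 8 lower in fibroblasts, 3 and 4 in mural cells and 7 and 3 in blood endothelial cells, and of 19 measured in lymphatic endothelial cells 9 were higher and 1 lower. Of all genes, 19.6% and 10.7%, 27% and 15.9%, 25.3% and 15%, and 20.5% and 19.1% were higher and lower in the same order of classes. No difference from these shares was tested. Of the 4 nuclear RNAs read as a sign of RNA quality, Neat1 was lower in each class, with log2 ratios between -1.48 and -1.14, while Malat1 had between 0.05 and 0.21 and Kcnq1ot1 between 0.20 and 0.50. Meg3 had -0.77 in mural cells and between 0.20 and 0.37 elsewhere. Haemoglobin genes were under 10 CPM in the 4 classes.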

How the data were processed

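Single-cell RNA was measured in 1 library of conventional and 1 of No-Touch vein grafts, and the titles of the samples gave the groups. The authors deposited UMI counts, as 1 filtered gene by barcode matrix for each library. Cell Ranger 3.1.0 and mm10 are named per the submitters' processing notes, while the matrices carry version 6.0.0 per the file headers. The labels do not settle the version of the 10x kit. The deposited counts hold 200851272 UMIs in 11899 barcodes and 373319906 UMIs in 12450 barcodes.

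A cell was kept if it had 500 genes or more, 1000 UMIs or more and a mitochondrial share of 10% or less. A cell's score for a class was the mean over its markers of log1p counts per 10000, each divided by that marker's 99th percentile and limited to 1. A cell was assigned where the top score was at least 0.3 and led by at least 0.1, and this rule was set after the data were seen. In the main values doublets were treated by this gate alone, and doublet scores were used in 1 alternative. States within fibroblasts and mural cells were gated likewise. Counts were summed per class and library, and ratios were taken on log2(CPM + 1), which understates the change of low genes. A gene entered a count at 10 CPM in either library, or 100 where named. With 1 library per group no test was run. Intervals are 95% exact ones (Clopper-Pearson for shares, Garwood for counts), and cover counting error only. UMI levels are not scaled by gene length, so levels are compared across cells and not between genes.

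The members and lists were chosen with earlier results of these data known. Named members are those with the 3 highest and the 3 lowest ratios in a class, the 5 widest and 5 narrowest in class spread, paralogs with their parents, Rps27a, Rps3a1, Rpsa and the stalk proteins, and others are said to be named after their values were seen. Members of the smaller classes, Rpl15 and the genes given with the neutrophils, T or NK cells, Schwann cells, epithelial cells and phagocytes were also named after their values were seen. The ratio count was tested on simulated data. Scalings by median of ratios and by TMM (edgeR 4.0.16), stricter gating, a lower mitochondrial limit, removal of the highest 8% of doublet scores (scanpy 1.11.5), thinning and other thresholds were the alternatives. A few genes that enter the counts and sums are not reported here by name or drawn in the figures.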

Additional observations from a re-analysis of the deposited data

Results flagged for a closer look

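Listed here are log2 ratios, No-Touch over conventional, where classes of the same 2 libraries lay on opposite sides of 0 beyond their counting intervals. Among the summed share and the members named by rule with at least 10 CPM, there were 6 such results. Rpl39l, under 10 CPM in each of the 4 larger classes, was not listed, with -0.68 in fibroblasts and 1.92 in lymphatic endothelial cells. Members outside that rule were not listed here, and some of them also lay on opposite sides of 0. None of these differences between classes was tested, since 1 library per group allows no test. The summed share of the 83 genes was 0.03 in Schwann cells, while it was below 0 in the 4 larger classes. Unthinned, the median Schwann cell had 8.64% and 8.60%, from 135 and 154 cells, so by this median the No-Touch library was not the higher one. After thinning to 5000 UMIs the median Schwann cell had 8.20% and 10.5%, from 87 and 93 cells. After thinning to 2000 UMIs it had 8.55% and 8.60%, from 124 and 152 cells. Near the edge of the gate lay 13 conventional and 50 No-Touch Schwann cells.

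Rpl22l1 was 0.19 in fibroblasts and -0.08 in mural cells. Rps27 was 0.36 in lymphatic endothelial cells and -0.04 in fibroblasts. Rps18 was 0.08 in lymphatic endothelial cells and -0.18 in fibroblasts. Rps4x was 0.03 in mural cells and -0.19 in fibroblasts, and the mural value turned below 0 under other scalings. Rplp1 was 0.01 in fibroblasts, which also turned below 0 under other scalings, and -0.14 in blood endothelial cells. Of these genes, Rps27 shared all its 3 prime 31-base stretches with other genes (100%), Rps18 80%, Rplp1 67.1%, Rps4x 50% and Rpl22l1 45.9%.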

How the results depend on the processing

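The lower share in No-Touch fibroblasts was kept under each setting run. Its log2 ratio was -0.19 with the highest doublet scores removed, -0.18 with a stricter gate, -0.17 after thinning to 5000 UMIs and -0.24 in cells of 10000 to 20000 UMIs, a setting chosen after seeing the data. In mural cells it was -0.0412 with the stricter gate, -0.0415 after thinning and -0.0107 in cells of that depth. In blood endothelial cells it was -0.0899 after thinning and -0.10 at that depth. In lymphatic endothelial cells it was -0.0376 at the 5% mitochondrial limit and reversed to 0.00636 at that depth. The cause was not tested.

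Scaling moved counts of members. The shares of all genes given in the results are for CPM values, and none are given for other scalings or after thinning. Median-of-ratios scaling shifted all log2 ratios by -0.03, -0.13, -0.12 and -0.05 in fibroblasts, mural, blood endothelial and lymphatic endothelial cells, and TMM by -0.03, -0.11, -0.11 and -0.02, since both set a common centre. Under median of ratios 17 members were lower in fibroblasts, 13 in mural and 15 in blood endothelial cells, and 3 were higher in mural and 2 in blood endothelial cells. Under TMM these counts were 18, 10 and 12 lower, with 3 higher in mural cells. Thinning gave 4 higher in fibroblasts. At 1.5-fold, 0 members were higher and 1 lower in fibroblasts, 1 and 0 in mural cells, 1 and 0 in blood endothelial cells and 2 and 2 in lymphatic endothelial cells. The members' median stayed below 0 in all 4 classes under both scalings, between -0.22 and -0.07. Depth limits Rpl3l, Rpl10l and Rpl39l. No paired analysis was possible because each group holds 1 library.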
